A study of Mus musculus with 10 samples.

Results

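The genes described here are the 10 mouse genes of NADPH supply and the pentose phosphate pathway: G6pdx, Pgls, Pgd, Rpia, Tkt, Taldo1, Me1, Idh1, Idh2 and Nnt. They were taken by gene symbol from the deposited count table of 21222 genes, and all 10 were present. RNA of the left ventricle, the main pumping chamber of the heart, had been sequenced from male mice aged 6 months on the C57BL/6J background. TGH (n = 3) carried the CaNrf2-High transgene and TGL (n = 3) the CaNrf2-Low transgene, and the controls, NTG (n = 4), were non-transgenic animals of the same strain. TG stands for TGH and TGL together (n = 6). Nrf2 is the transcription factor, encoded by Nfe2l2, that raises the transcription of antioxidant and detoxifying enzymes. The sources used here do not give the promoter that drives the transgene, the number of founder lines or whether tissue was pooled. The labels do not say that each library is a separate animal, so p-values measure the spread between these libraries.

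NADPH is the reducing agent that cells spend on regenerating glutathione and thioredoxin and on making fatty acids and deoxynucleotides. The pentose phosphate pathway forms it in an oxidative branch, in which glucose-6-phosphate dehydrogenase (G6pdx) and 6-phosphogluconate dehydrogenase (Pgd) each reduce NADP+ and a lactonase (Pgls) acts between them. The non-oxidative branch, with ribose-5-phosphate isomerase (Rpia), transketolase (Tkt) and transaldolase (Taldo1), interconverts the resulting sugar phosphates and returns them to glycolysis. Outside the pathway NADPH comes from cytosolic malic enzyme (Me1), from the cytosolic (Idh1) and mitochondrial (Idh2) isocitrate dehydrogenases, and from the proton-driven transhydrogenase of the inner mitochondrial membrane (Nnt). Several of these enzymes, among them G6pdx, Pgd, Tkt, Taldo1 and Me1, are known Nrf2 targets in other mouse and human tissues, where Nrf2 with small Maf proteins binds the antioxidant response element.

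The promoters are shown first, because the core letters of that element lay near the RefSeq starts of G6pdx and Me1. Those genes did not pass the tests below. In Pgd the core lay only at a second start. RefSeq promoter windows (GRCm38.p6, 250 bases before to 50 after a start) were available for 9 members, 12 windows in all, and none for Nnt. The core TGACNNNGC, searched on both strands, was present in 3 of the 12 windows, against 12.4% of 32851 windows of all genes. These were the window of G6pdx, the first of the 2 windows of Me1 and the second of the 2 windows of Pgd. The matches are printed in capitals within 30 bases of the gene's own strand. Positions are counted from the RefSeq start that a window surrounds, and not from the first base of the window.
G6pdx, chrX:74428918-74428947, minus strand, core on the opposite strand and beginning 57 bases before the start: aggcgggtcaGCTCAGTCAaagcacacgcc
Me1, chr9:86695901-86695930, minus strand, beginning 6 bases before the start: gatgccgccgTGACTCAGCgcttctcgcgg
Pgd, chr4:149166060-149166089, minus strand, beginning at base 4 after the start of the second window: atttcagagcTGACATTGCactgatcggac
The Me1 match overlaps the letters TGANTCA of the AP-1 motif. By the gene coordinates printed below, which begin farther upstream than these RefSeq starts, all 3 matches lie inside the genes. A match is a description of letters and not a site of binding, and a window without one says nothing of more distant elements.

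The windows of Taldo1 and the first window of Pgd, the genes with the largest increases, held no such core. They shared a run of 11 bases, the longest run common to the pair, printed in capitals at the end of the 100 bases before each start.
Taldo1, chr7:141392060-141392159, plus strand: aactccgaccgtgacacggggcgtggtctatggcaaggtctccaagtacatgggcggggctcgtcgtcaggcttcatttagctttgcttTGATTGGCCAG
Pgd, chr4:149166706-149166805, minus strand: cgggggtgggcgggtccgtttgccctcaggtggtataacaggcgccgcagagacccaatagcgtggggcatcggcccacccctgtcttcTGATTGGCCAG
In both genes the run ended at the last base before the RefSeq start. That shared position holds for RefSeq starts only. By the gene coordinates printed below, the run lies inside Pgd, which begins at 149166771 on the minus strand. In Taldo1 it lies before the gene, which begins at 141392199, and does not touch it. It occurred in 88 of the 32851 windows (0.268%) and in no other member's window. It contains ATTGG, which is CCAAT read on the other strand, and CCAAT on either strand was present in 37.4% of all windows and in 5 of the 12 member windows, those of Taldo1, Idh2, the first of Pgd and Idh1 and the second of Me1. The pair was chosen for its expression values, and its longest common run was then sought, so some shared run was certain. How long a run other pairs of windows share was not tested, so the 0.268% does not measure how unusual the run is.

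Libraries held 7076319 to 10896535 counts over genes, and values below are counts per 1000000 counts (CPM) scaled with TMM, edgeR's trimmed-mean factors. A gene was said to have risen or fallen where the quasi-likelihood test of edgeR gave an adjusted p under 0.05, by the method of Benjamini and Hochberg over 14511 genes for comparisons between the 3 groups and over 14265 for TG against NTG. All 10 members passed the low-count filter. NTG 2 stood farthest from the other libraries of its group in count differences and was the extreme NTG library for Idh1, Idh2 and Nnt, so results that rest on it are given with and without it. TGL 2 lay nearest to NTG among the transgenic libraries on the first principal component. Nfe2l2 itself averaged higher in TGH than in NTG (log2 fold change 0.80 ± 0.19 SE, edgeR adjusted p = 0.0078) and had a log2 fold change of 0.26 in TGL against NTG (adjusted p = 0.456). Its counts do not check the labels, because the part of the gene that the transgene holds is not given.

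In TGH against NTG, 4 of the 10 members rose (Taldo1, Pgd, Tkt and Idh2) and 1 fell (Nnt), where 16.0% of all tested genes rose and 16.4% fell. In TGL against NTG, 3 members rose (Taldo1, Pgd and Idh1) and 0 fell, where 4.15% of all genes rose and 2.14% fell. DESeq2 also called 3 and 0 there, and at an unadjusted p under 0.05 edgeR had 6 members higher and 0 lower. At that unadjusted threshold at least 3215 of the 14511 tested genes passed in either direction. The shares of 4.15% and 2.14% are therefore no measure for those 6 members. In TGH against TGL, 2 members were higher (Taldo1 and Pgd) and 1 lower (Idh1), where 5.53% of all genes were higher and 4.11% lower. In TG against NTG, 5 members rose (Taldo1, Pgd, Tkt, Idh1 and Idh2) and 0 fell, where 9.34% of all genes rose and 8.03% fell. DESeq2 also gave 5 and 0, and at an unadjusted p under 0.05 edgeR had 6 higher and 1 lower. At least 4816 of the 14265 tested genes passed that unadjusted threshold in either direction. The shares of all genes printed here and below hold for edgeR's adjusted p only. None is given by direction for an unadjusted p or for DESeq2. The median log2 fold change over the 10 members was 0.25 in TGH against NTG, 0.29 in TGL against NTG, -0.04 in TGH against TGL and 0.29 in TG against NTG, and over all tested genes it lay between -0.02 and 0.00. The comparisons against NTG share the NTG libraries.

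**Figure D1:**
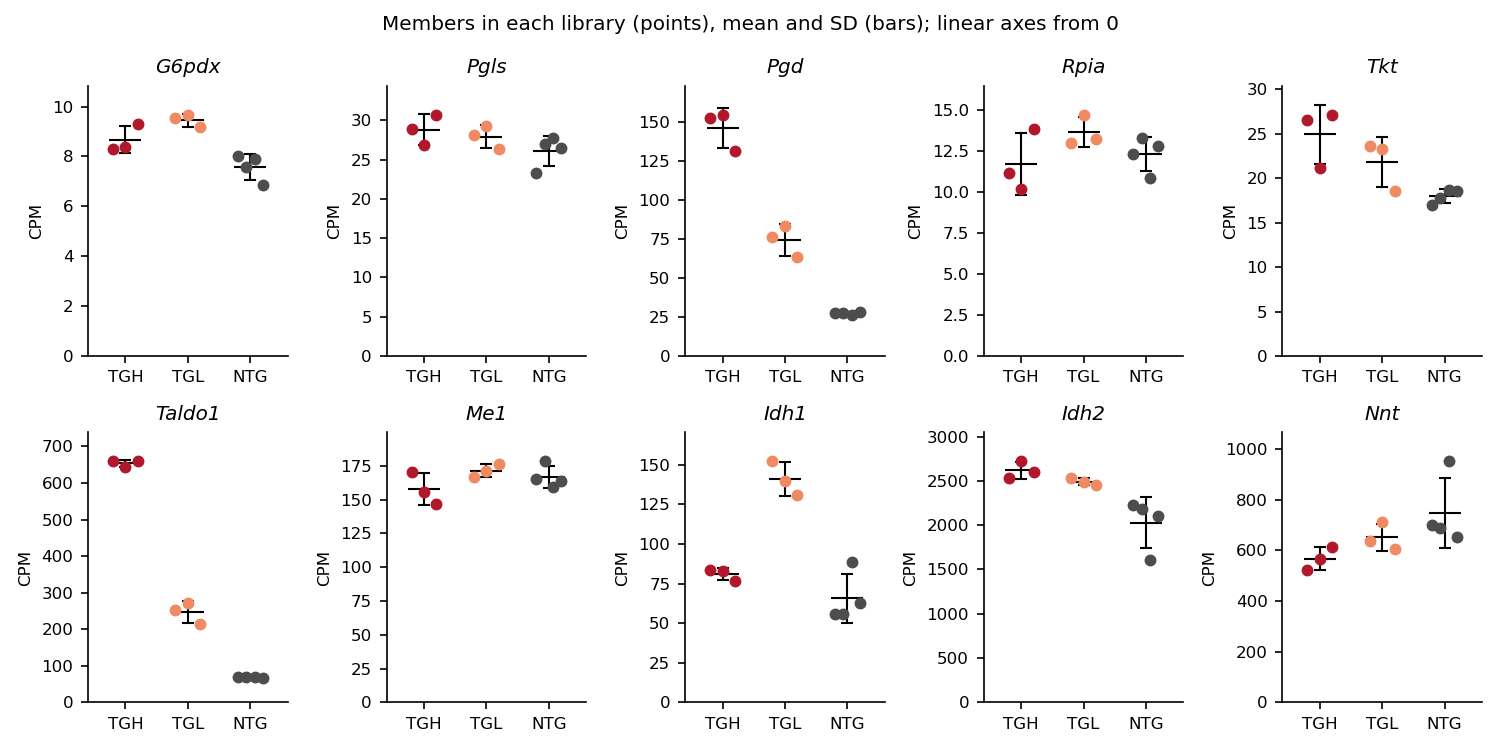
CPM (vertical axes, linear and from 0) of each of the 10 members in TGH, TGL and NTG, with 1 point per library and bars for mean and SD. Taldo1 and Pgd form 3 separate levels, Idh1 is highest in TGL, and NTG 2 is the high point of Idh1 and Nnt and the low point of Idh2 among NTG libraries.

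Of the oxidative branch, only its last enzyme passed the test. Pgd, which converts 6-phosphogluconate to ribulose-5-phosphate and forms NADPH (ENSMUSG00000028961, GRCm38 chromosome 4, 149149991 to 149166771), had 152, 154 and 131 CPM in TGH and 76.3, 83.2 and 63.1 CPM in TGL, against 27.7, 27.2, 26.3 and 27.8 CPM in NTG. The 3 groups did not overlap, and TGL 2 was the lowest transgenic library. Pgd was 5.35-fold higher in TGH than in NTG (log2 fold change 2.42 ± 0.10 SE, edgeR adjusted p = 1.11e-08) and 2.72-fold higher in TGL than in NTG (1.45 ± 0.10, adjusted p = 4.38e-06). TGH exceeded TGL 1.96-fold (adjusted p = 0.0002).

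G6pdx, the first and rate-limiting enzyme (ENSMUSG00000031400, chromosome X, 74409483 to 74429194), had 8.32, 8.39 and 9.30 CPM in TGH and 9.54, 9.67 and 9.16 CPM in TGL, against 8.03, 7.57, 7.89 and 6.87 CPM in NTG. Every transgenic library lay above every NTG library, by a small margin and on 60 to 97 counts per library. The log2 fold change was 0.19 ± 0.12 in TGH against NTG (edgeR adjusted p = 0.232), with a 95% interval of 0.958- to 1.36-fold. In TGL against NTG it was 0.32 ± 0.12 (adjusted p = 0.142, 95% interval 0.06 to 0.58). The fold of Pgd in the same comparisons, given above, lay outside both intervals. The exons of G6pdx overlap those of Ikbkg on the opposite strand over 13.6% of their length, and the strand counted is not given, so reads of the pair may be mixed.

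Pgls, the lactonase between the dehydrogenases (ENSMUSG00000031807, chromosome 8, 71592176 to 71601092), averaged 28.8 ± 1.95 CPM in TGH, 27.9 ± 1.49 CPM in TGL and 26.1 ± 1.96 CPM in NTG (SD, n = 3, 3 and 4). Its groups overlapped. The fold over NTG had a 95% interval of 0.959 to 1.27 in TGH (edgeR adjusted p = 0.261) and of 0.929 to 1.23 in TGL (adjusted p = 0.578). Over 20.6% of its exons it overlaps Fam129c on the same strand. Per kilobase of annotated exons, the ratio of Pgd to G6pdx was 6.73 to 8.79 in TGH, 3.29 to 4.11 in TGL and 1.59 to 1.94 in NTG, with no overlap between groups.

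In the non-oxidative branch Taldo1, which exchanges 3-carbon units between sugar phosphates, had the largest difference of any member. Taldo1 (ENSMUSG00000025503, chromosome 7, 141392199 to 141402968) had 659, 643.8 and 659 CPM in TGH and 254, 273 and 214 CPM in TGL, against 70.4, 69.9, 69.0 and 66.7 CPM in NTG. The 3 groups lay far apart, with a coefficient of variation of 1.35% in TGH, 12.2% in TGL and 2.33% in NTG. Its level was 9.48-fold higher in TGH than in NTG (95% interval 8.36 to 10.75, log2 fold change 3.24 ± 0.08 SE, edgeR adjusted p = 2.73e-10). In TGL it was 3.58-fold higher than in NTG (1.84 ± 0.08, adjusted p = 8.67e-08). TGH exceeded TGL 2.65-fold (adjusted p = 1.52e-05). By p-value Taldo1 was gene 5 of 14511 in TGH against NTG and gene 2 in TGH against TGL. Of its transcript, 6.67% of 50-base words also occur in the processed pseudogene Gm17823.

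Tkt, the 2-carbon transferase that works beside transaldolase (ENSMUSG00000021957, chromosome 14, 30548359 to 30574720), had 26.6, 21.1 and 27.1 CPM in TGH and 23.6, 23.3 and 18.6 CPM in TGL, against 17.0, 17.8, 18.7 and 18.5 CPM in NTG. All TGH libraries lay above NTG, and TGL 2 lay inside the NTG range. Tkt rose 1.38-fold in TGH (log2 fold change 0.47 ± 0.12 SE, edgeR adjusted p = 0.0111), and in TGL the log2 fold change was 0.28 (adjusted p = 0.204). TGH against TGL gave 0.19 (adjusted p = 0.409), so a difference between the transgenic groups was not shown.

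Rpia, which forms ribose-5-phosphate (ENSMUSG00000053604, chromosome 6, 70765720 to 70792232), averaged 11.7 ± 1.89 CPM in TGH, 13.6 ± 0.925 CPM in TGL and 12.3 ± 1.04 CPM in NTG (SD, n = 3, 3 and 4), with overlapping groups. Its log2 fold change was -0.08 in TGH against NTG (edgeR adjusted p = 0.682) and 0.15 in TGL against NTG (adjusted p = 0.547). Rpe, the ribulose-phosphate epimerase that completes the branch and is not a member, had a log2 fold change of 0.24 ± 0.13 in TGH against NTG (adjusted p = 0.183). Relative to Tkt, the level of Taldo1 per kilobase was 82.3 to 103-fold in TGH, 36.4 to 39.7-fold in TGL and 12.2 to 14.0-fold in NTG.

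**Figure D2:**
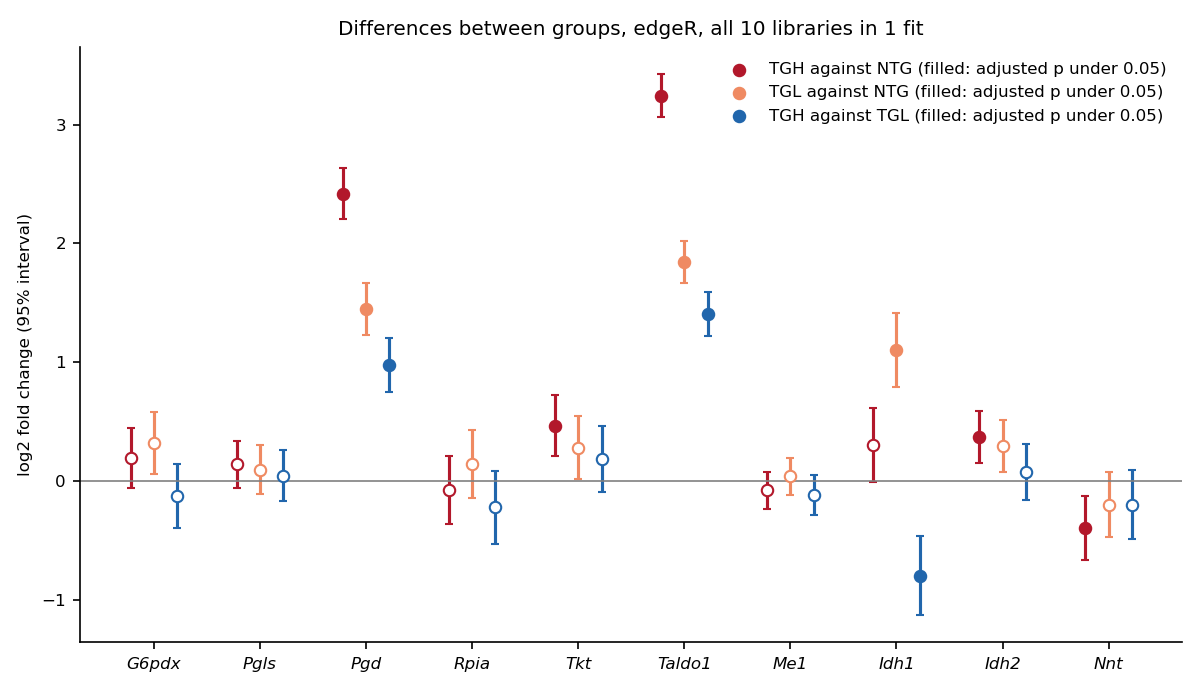
Log2 fold change of each member (vertical axis) with its 95% interval for TGH against NTG, TGL against NTG and TGH against TGL; filled points have an edgeR adjusted p under 0.05. Pgd and Taldo1 are apart from 0 in all 3 comparisons, and Idh1 is positive in TGL against NTG and negative in TGH against TGL.

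Among the dehydrogenases outside the pathway, Idh1 was higher in TGL than in both TGH and NTG. Idh1, which forms cytosolic and peroxisomal NADPH from isocitrate (ENSMUSG00000025950, chromosome 1, 65158616 to 65186500), had 83.4, 83.0 and 76.8 CPM in TGH and 152, 139.7 and 131 CPM in TGL, against 55.5, 55.8, 88.5 and 62.8 CPM in NTG. Every TGL library lay above every TGH and NTG library, and NTG 2 lay above all of TGH. Idh1 rose 2.15-fold in TGL against NTG (log2 fold change 1.10 ± 0.14 SE, edgeR adjusted p = 0.000721). Its level in TGH was 0.575-fold of that in TGL (-0.80 ± 0.15, adjusted p = 0.00743). In TGH against NTG the log2 fold change was 0.30 ± 0.14 (adjusted p = 0.125), and without NTG 2 it was 0.48 (adjusted p = 0.00173). Without NTG 2 the increase in TGL was 1.28 (adjusted p = 6.58e-06).

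Idh2, the mitochondrial form and the main NADP-linked isocitrate dehydrogenase of heart muscle (ENSMUSG00000030541, chromosome 7, 80094846 to 80115392), had 2537, 2719 and 2594 CPM in TGH and 2528, 2488 and 2448 CPM in TGL, against 2225, 2185, 1609 and 2098 CPM in NTG. All transgenic libraries lay above all NTG libraries, of which NTG 2 was the lowest. Idh2 rose 1.29-fold in TGH (log2 fold change 0.37 ± 0.10 SE, edgeR adjusted p = 0.016), and without NTG 2 the log2 fold change was 0.27 (adjusted p = 0.00975). Without TGH 1 the call was lost (0.34, adjusted p = 0.0621). TGL against NTG gave 0.29 ± 0.10 (adjusted p = 0.11) and TGH against TGL 0.07 (adjusted p = 0.733).

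Nnt, the mitochondrial transhydrogenase (ENSMUSG00000025453, chromosome 13, 119335448 to 119408997), was the only member that fell. It had 523, 567 and 614 CPM in TGH and 638, 710.5 and 607 CPM in TGL, against 702, 687, 951 and 651 CPM in NTG. All TGH libraries lay below all NTG libraries, while TGL overlapped with both. Nnt was 0.760-fold in TGH relative to NTG (log2 fold change -0.40 ± 0.12 SE, edgeR adjusted p = 0.0295). Without NTG 2, at 951 CPM the highest library, the value was -0.26 (adjusted p = 0.0359). The call was lost without TGH 0 (-0.34, adjusted p = 0.101) or without TGH 1 (-0.39, adjusted p = 0.0861). The value for TGL against NTG was -0.20 (adjusted p = 0.372), and -0.06 without NTG 2 (adjusted p = 0.707). The C57BL/6J strain is known for a deletion of several Nnt exons that leaves little functional protein, and gene totals do not show which exons were read. Another annotated Nnt gene covers 47.5% of these exons, so the total may not hold all Nnt reads.

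Me1, cytosolic malic enzyme (ENSMUSG00000032418, chromosome 9, 86581371 to 86695953), had 171, 156 and 147 CPM in TGH and 166, 171 and 176 CPM in TGL, against 165, 178, 159.5 and 164 CPM in NTG, and all 3 groups overlapped. The fold over NTG had a 95% interval of 0.850 to 1.05 in TGH (log2 fold change -0.08 ± 0.07 SE, edgeR adjusted p = 0.419) and of 0.922 to 1.14 in TGL (adjusted p = 0.79). Of its 50-base words, 28.3% also occur elsewhere, mainly in the processed pseudogene Gm7049.

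**Figure D3:**
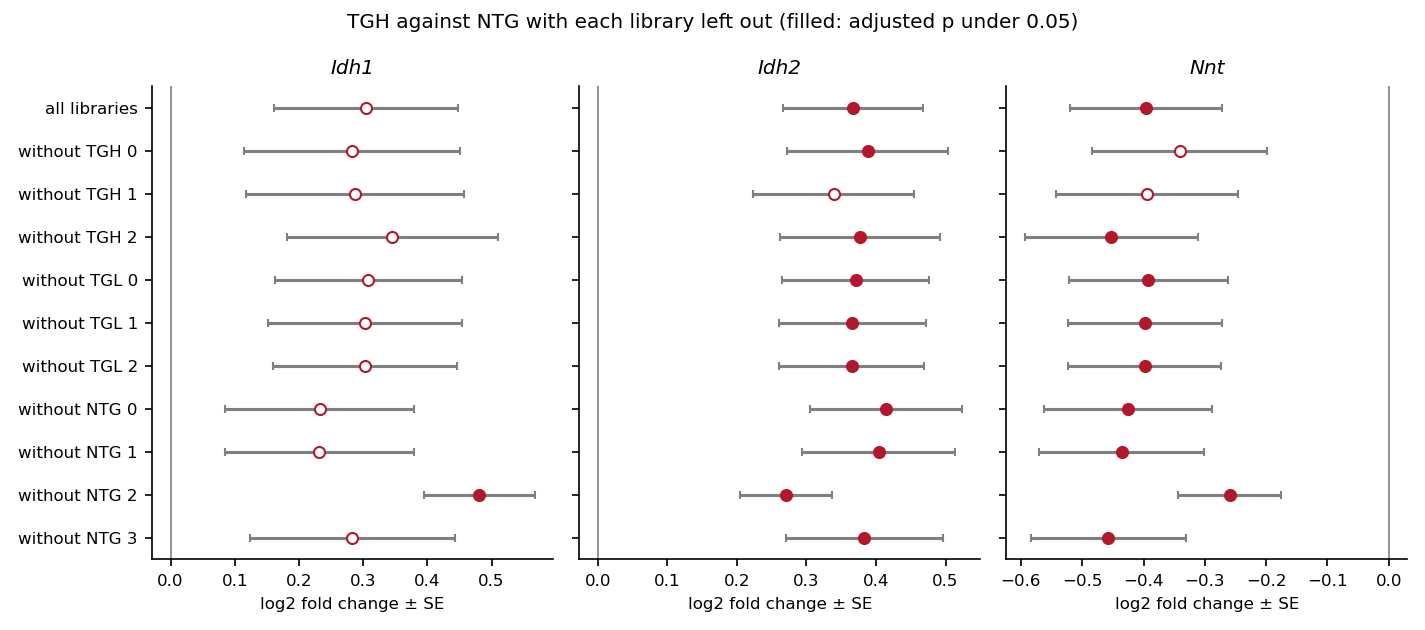
Log2 fold change (horizontal axes) with SE of Idh1, Idh2 and Nnt in TGH against NTG, with all libraries and with each library left out; filled points have an edgeR adjusted p under 0.05. Leaving out NTG 2 moves Idh1 up to 0.48 and brings Idh2 to 0.27 and Nnt to -0.26.

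Levels between genes can be compared only per length, here per kilobase of the union of annotated exons, which understates genes with many annotated isoforms. On that scale Idh2 was the highest member in every group, at 1011 ± 36.0 CPM per kilobase in TGH, 961 ± 15.3 in TGL and 784 ± 110 in NTG (SD, n = 3, 3 and 4). Taldo1 was the second highest in TGH at 301 ± 4.06 CPM per kilobase and in TGL at 114 ± 13.9, whereas in NTG, at 31.8 ± 0.741, it stood below Nnt (106 ± 19.5) and Me1 (43.3 ± 2.10). As a share of the summed CPM per kilobase of the 10 members, Taldo1 held 20.1% in TGH, 8.80% in TGL and 3.17% in NTG, and Idh2 held 67.3% in TGH, 74.5% in TGL and 77.5% in NTG. The levels of G6pdx, Tkt and Rpia were the lowest, between 2.19 and 3.39 CPM per kilobase in every group, and neighbours among them were within their spread of each other in NTG.

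The sum over the oxidative branch (G6pdx, Pgls and Pgd) was 31.5 to 34.0 CPM per kilobase in TGH, 19.8 to 23.8 in TGL and 13.1 to 14.0 in NTG. The sum over the non-oxidative branch (Rpia, Tkt and Taldo1) was 301 to 310 CPM per kilobase in TGH, 104 to 132 in TGL and 35.7 to 37.1 in NTG. Neither sum overlapped between groups, but the differences came mainly from 1 gene in each. Taldo1 averaged 301 of the 307 CPM per kilobase of its branch in TGH and 31.8 of 36.5 in NTG. Pgd averaged 22.6 of 33.1 in TGH and 4.2 of 13.6 in NTG. G6pdx, Pgls and Rpia passed the test in no comparison. The ratio of cytosolic to mitochondrial isocitrate dehydrogenase (Idh1 to Idh2, per kilobase) was 0.0276 to 0.0307 in TGH, 0.0499 to 0.0562 in TGL and 0.0233 to 0.0514 in NTG, where NTG 2 alone lay above 0.0280.

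**Figure D4:**
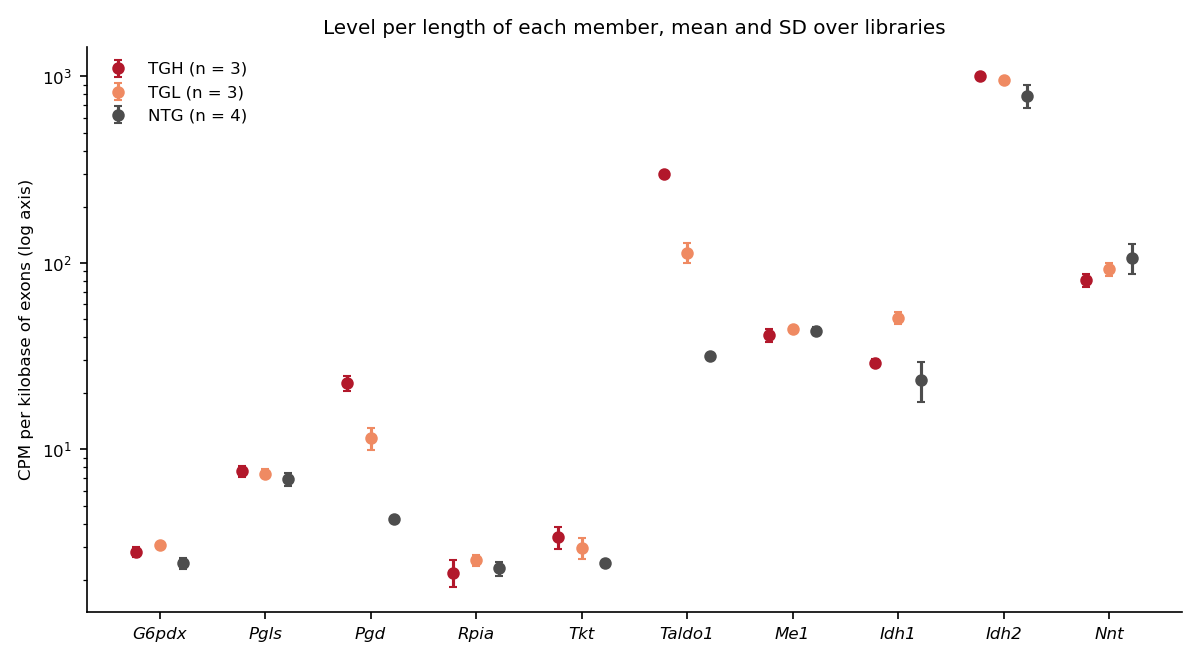
Level of each member in CPM per kilobase of exons (vertical axis, log scale), mean and SD over the libraries of TGH, TGL and NTG. Idh2 is highest in every group, and Taldo1 is at 301 in TGH, 114 in TGL and 31.8 in NTG.

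The genes nearest to a member in pattern were found by the root mean square difference of centred log2(CPM + 0.5) values over the 10 libraries. For Taldo1 the nearest were the esterase Esd (0.141) and Gm17046 (0.143), and for Pgd they were the reticulon Rtn4 (0.117), the glutathione transferase Gstm2 (0.135) and Lrrcc1 (0.152). For Idh1 they were Napepld (0.177), which makes N-acylethanolamines, the actin-associated Afap1 (0.178) and the semaphorin Sema3d (0.214). For Nnt they were Igf2r (0.081), Idua (0.0859) and Gm8623 (0.0879).

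The other genes around the NADPH pool were taken from lists chosen with earlier results of these data known. Of the enzymes that spend NADPH or work with it in redox defence, 14 of 16 rose in TGH against NTG and 0 fell, with a median log2 fold change of 0.70. Over all tested genes 16.0% rose and 16.4% fell. In TGL against NTG 9 of the 16 rose and 0 fell (median 0.38), where 4.15% of all genes rose and 2.14% fell. In TGH against TGL 8 were higher and 0 lower (median 0.42), where 5.53% of all genes were higher and 4.11% lower. Of the 16, DESeq2 also called 0 lower in these comparisons, as did edgeR at an unadjusted p under 0.05. Biliverdin reductase B (Blvrb) had 307, 284 and 255 CPM in TGH and 94.7, 97.2 and 70.0 CPM in TGL, against 13.2, 11.8, 10.6 and 12.2 CPM in NTG. Thioredoxin reductase 1 (Txnrd1) was 3.86-fold higher in TGH than in NTG (edgeR adjusted p = 7.26e-07) and glutathione reductase (Gsr) 3.87-fold (adjusted p = 1.53e-06). The quinone reductase Nqo1 was 2.53-fold higher (adjusted p = 2.38e-06). Of the genes of this list that rose, Cyb5r3 uses mainly NADH, and catalase (Cat) binds NADPH without spending it on its main reaction.

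Of the remaining sources of NADPH, 10 genes were tested. In TGH against NTG 1 rose and 1 fell, where 16.0% of all tested genes rose and 16.4% fell. All of the 10 but Me2 had a negative log2 fold change there, with a median of -0.16 over the 10, and of the negative values only that of Aldh1l2 passed the threshold. In TGL against NTG 0 of the 10 rose and 0 fell, where 4.15% of all tested genes rose and 2.14% fell. At an unadjusted p under 0.05, edgeR had 1 higher and 2 lower in TGL, and DESeq2 called 0. Mitochondrial Me2, a malic enzyme that prefers NAD, rose 1.57-fold in TGH (adjusted p = 0.00412), and the mitochondrial folate dehydrogenase Aldh1l2 fell to 0.561-fold (adjusted p = 0.00267). Mitochondrial NADP-linked Me3 had a log2 fold change of -0.14 in TGH (adjusted p = 0.121). Of the genes listed as relatives of the members, 1 of 4 tested fell in TGH, the NAD-linked isocitrate dehydrogenase subunit Idh3b at 0.845-fold (adjusted p = 0.0199). Idh3a (-0.15, adjusted p = 0.104), Idh3g (-0.06, adjusted p = 0.524) and Shpk (0.96, adjusted p = 0.121) did not pass.

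Genes of glucose entry and early glycolysis moved in both directions in TGH against NTG. Of 14, 4 rose (Slc2a1, Hk1, Pfkp and Tpi1) and 5 fell (among them Slc2a4, Hk2, Pfkm and Fbp2), with a median log2 fold change of 0.06. Over all tested genes 16.0% rose and 16.4% fell. Hexokinase 2 (Hk2), the main insulin-responsive hexokinase of heart muscle, had 211, 207 and 222 CPM in TGH and 267, 298 and 291 CPM in TGL, against 359, 322, 387 and 326 CPM in NTG. The groups did not overlap, and Hk2 was 0.612-fold in TGH relative to NTG (edgeR adjusted p = 4.97e-05). Fructose bisphosphatase 2 (Fbp2) was 0.338-fold (adjusted p = 5.69e-05) and platelet phosphofructokinase (Pfkp) 1.90-fold (adjusted p = 0.000117). Between TGL and NTG 2 of the 14 rose (Hk1 and Pfkp) and 0 fell by edgeR, where 4.15% of all tested genes rose and 2.14% fell. Hk2 was at 0.818-fold there (edgeR adjusted p = 0.0535). Of the 14, DESeq2 called 3 and 1 in that comparison, and edgeR had 3 higher and 2 lower at an unadjusted p under 0.05.

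Genes around ribose phosphate and nucleotides gave 3 of 14 that rose (Hprt, Aprt and Impdh1) and 3 that fell (Prps2, Prpsap1 and Impdh2) in TGH against NTG, with a median log2 fold change of -0.04. These shares are near those over all genes, of which 16.0% rose and 16.4% fell. The symbol Ppat is held by a gene on chromosome 5 and another on chromosome 11, and only the latter was counted. In TGL against NTG edgeR and DESeq2 called 0 of the 14 in either direction, and edgeR had 1 higher and 2 lower at an unadjusted p under 0.05. Over all tested genes edgeR called 4.15% higher and 2.14% lower there at an adjusted p under 0.05. With so few calls over all genes, 0 of 14 says little about this list. Of lipid and nucleotide synthesis genes, 3 of 14 rose in TGH (Scd2, Pycr1 and Sqle) and 2 fell (Fasn and Acacb), with a median of 0.24, again near the shares over all genes. Fatty acid synthase (Fasn), which spends NADPH, was 0.558-fold (edgeR adjusted p = 0.00184), and acetyl-CoA carboxylase 2 (Acacb), which does not use NADPH itself, was 0.646-fold (adjusted p = 0.000338). Of NADPH oxidases and their subunits, 1 of 7 rose, the phagocyte catalytic subunit Cybb at 2.18-fold in TGH (adjusted p = 0.00143) and 1.82-fold in TGL (adjusted p = 0.0317), and Nox4 had a log2 fold change of 1.14 ± 0.42 in TGH (adjusted p = 0.0568).

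**Figure D5:**
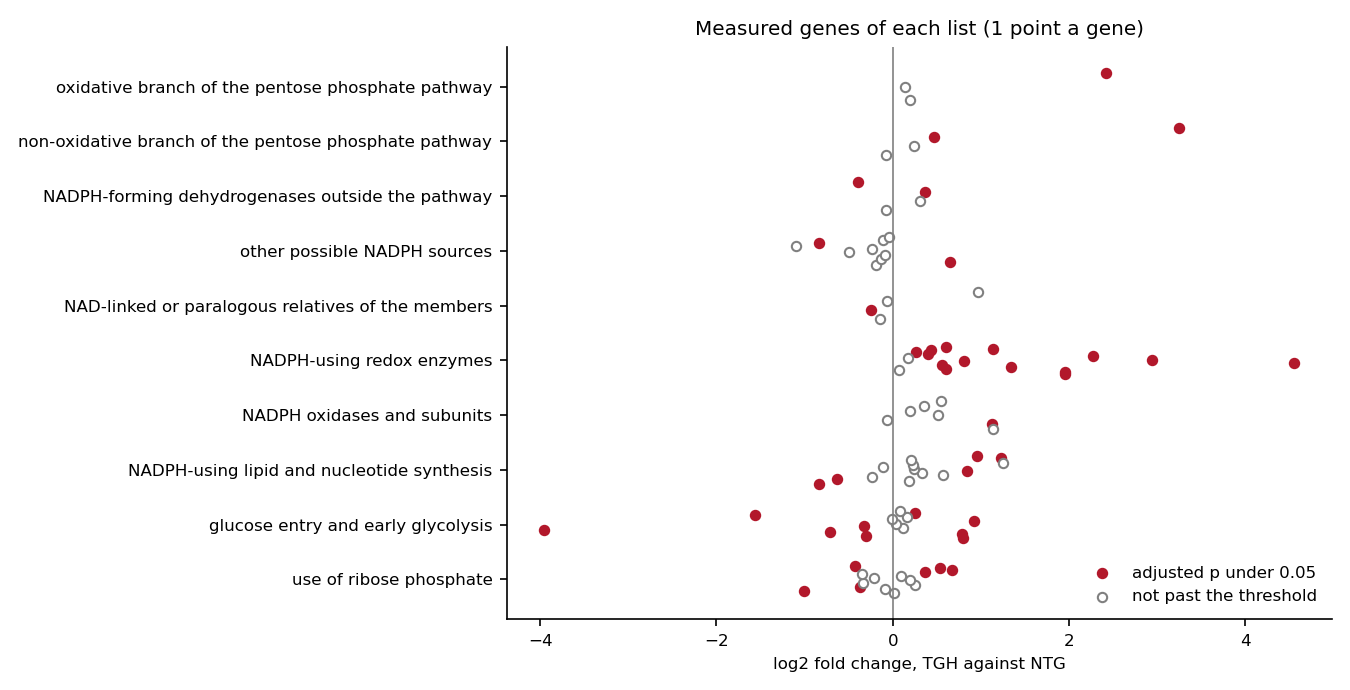
Log2 fold change in TGH against NTG (horizontal axis) of each tested gene, grouped by list (vertical axis), with filled points for an edgeR adjusted p under 0.05. The list of enzymes that spend NADPH or work with it in redox defence lies to the right of 0, with 14 of 16 called. The called genes include Cyb5r3, which uses mainly NADH, and Cat. The lists of glycolysis and ribose use have points on both sides, and of the other NADPH sources only Me2 lies to the right of 0.

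In bulk tissue, fewer cells of a type and less RNA per cell cannot be told apart, and markers of several cell types moved with the groups. Over all tested genes, 16.0% rose and 16.4% fell in TGH against NTG, and 4.15% rose and 2.14% fell in TGL against NTG. The summed level of 8 cardiomyocyte markers was 61090 to 66310 CPM in TGH, 71750 to 72160 CPM in TGL and 74290 to 80160 CPM in NTG, and 6 of them fell and 1 rose in TGH. In TGL against NTG 1 of the 8 fell (Ryr2) and 0 rose. The 7 fibroblast markers summed to 1549 to 1562 CPM in TGH, 1261 to 1614 CPM in TGL and 937.5 to 1227 CPM in NTG, and 6 rose in TGH. In TGL against NTG 2 of the 7 rose (Lum and Pi16) and 0 fell. Macrophage markers summed to 398 to 445 CPM in TGH, 239 to 312 CPM in TGL and 256 to 326 CPM in NTG, with 4 of 6 higher in TGH. Between TGL and NTG edgeR and DESeq2 called 0 macrophage markers, and 1 was higher at an unadjusted p under 0.05. The 5 endothelial markers summed to 523 to 644 CPM in TGH, 589 to 793 CPM in TGL and 728 to 785 CPM in NTG, and 3 fell in TGH. The 6 smooth muscle and pericyte markers summed to 1447 to 1906 CPM in TGH, 1407 to 1775 CPM in TGL and 1257 to 2110 CPM in NTG, and 2 fell in TGH. NTG 2 had the highest sum, with Acta2 at 922 CPM against 119 to 217 CPM in the other NTG libraries. Lymphocyte markers summed to at most 2.35 CPM in any library and adipocyte markers to at most 0.432 CPM, and of 4 red blood cell markers edgeR and DESeq2 called 0 in TGH, with 1 lower at an unadjusted p under 0.05. Atrial markers summed to 354 to 423 CPM in TGH, 307 to 938.5 CPM in TGL and 40.5 to 84.7 CPM in NTG, with the 2 that could be tested, Myl4 and Nppa, higher in TGH and TGL. The other 3 were at or near 0, with at most 5 counts in the sum over any group (Myl7 in NTG). The ventricular light chain gene Myl2 averaged 7964 CPM in TGH, 10620 CPM in TGL and 10980 CPM in NTG. The part of cell makeup in the changes of Taldo1, Pgd, Tkt, Idh1, Idh2, Nnt and Cybb was not tested.

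In TG against NTG, the comparison for which the authors deposited their own test, Taldo1 was 6.54-fold higher in TG (log2 fold change 2.71 ± 0.37 SE, edgeR adjusted p = 0.00142) and Pgd 4.05-fold higher (2.02 ± 0.26, adjusted p = 0.0013). Both SEs were larger than the 0.08 and 0.10 of the separate comparisons with NTG. Idh1 (0.76, adjusted p = 0.0386), Tkt (0.38, adjusted p = 0.0361) and Idh2 (0.33, adjusted p = 0.0299) also passed. Each of these 3 calls was lost when certain single libraries were left out, for Tkt 8 of the 10 libraries (adjusted p up to 0.103), for Idh1 5 (up to 0.114) and for Idh2 4 (up to 0.0585). In the authors' deposited table the log2 fold changes were 2.71 for Taldo1, 2.02 for Pgd, 0.76 for Idh1, 0.39 for Tkt, 0.34 for Idh2 and -0.29 for Nnt, with adjusted p-values of 0.00852 for Idh1, 0.0234 for Tkt, 0.00545 for Idh2 and 0.0956 for Nnt.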

How the data were processed

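Base calls had been converted with bcl2fastq 1.8.4 and adapters removed with Trim Galore 0.4.0, per the submitters' processing notes, which also name Novoalign and SAMtools, the genome build mm10 (GRCm38) and, for testing, DESeq2 1.18.1. The sources used here do not say how reads were assigned to genes, with which annotation or on which strand. Counts per gene and library are deposited by the authors as 1 table of 21222 genes. Its other columns, per the file headers, include a log2 fold change, its SE, baseMean (a signal, averaged over libraries), stat (a score) and p-values of TG against NTG. Genes without a symbol (1324, 0.777% of counts) stayed in the fits.

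Counts were tested as deposited with edgeR 4.0.16 (quasi-likelihood, TMM, filterByExpr) in R 4.3.3. The comparisons TGH against NTG, TGL against NTG and TGH against TGL come from 1 fit of 3 groups (biological coefficient of variation 13.9%), and TG against NTG from a fit of 2 groups (17.1%). A count of 3 equals 0.26 to 0.436 CPM. Intervals are 95% intervals of the fit. The code was tested on simulated counts. Alternatives were DESeq2 1.42.0, its size factors, other filters, other groups in the fit, a replicate block and leaving out libraries. Exon lengths, overlaps and shared 50-base words came from GENCODE annotation of GRCm38, whose starts and ends equal those of the file for all 10 members. Sequences are those of RefSeq (GRCm38.p6). The members and lists were chosen with earlier results of these data known. All 10 members are named, with up to 4 genes of each list by lowest adjusted p in TGH against NTG, relatives of the members, and the 3 genes nearest in pattern, printed for 4 members. A few values of genes outside the members are not reported here. Cyb5r3, Cat and the other called genes of the glycolysis, ribose and synthesis lists were named after their values were seen.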

Additional observations from a re-analysis of the deposited data

Results flagged for a closer look

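Nnt in NTG 2, at 951 CPM, stood apart from the other NTG libraries by more than a test for a single distant value allows. In the 4 NTG libraries 10 genes were examined this way and 1 was flagged, and chance flags about 1 in 20. NTG 2 also had the highest Idh1 and the lowest Idh2 of its group, and the highest sum of smooth muscle and pericyte markers (2110 CPM). The height of that sum came mainly from Acta2, at 922 CPM against 119, 126 and 217 CPM in NTG 0, 1 and 3.

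The effect of the high transgene over NTG differed from that of the low transgene over NTG in 3 members by edgeR's test of TGH against TGL. For Taldo1 the log2 effect was larger in TGH by 1.41, with 3 of 3 TGH libraries above all TGL libraries. For Pgd it was larger in TGH by 0.97 (0.974), again with all TGH libraries above all TGL libraries. For Idh1 the difference was -0.80 (-0.797), with all TGH libraries below all TGL libraries. Its order of groups, TGL highest, then TGH and NTG, was unlike that of Taldo1 and Pgd.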

How the results depend on the processing

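Of 170 alternative values per comparison (10 members under 17 settings each), direction and side of the threshold stayed in 164 for TGH against NTG, 169 for TGL against NTG, 169 for TGH against TGL and 145 for TG against NTG. Taldo1 and Pgd stayed called in all 17 settings of all 4 comparisons. The number of members that rose in TG against NTG, 5, was 2 with the replicate block, where Tkt had an adjusted p of 0.105, Idh1 0.125 and Idh2 0.0661, and it ranged from 2 to 5 with 1 library left out. The number that fell in TGH against NTG, 1, ranged from 0 to 1 with 1 library left out. The number that rose in TGH against NTG, 4, ranged from 3 to 5 over all settings, and the other 5 counts of members were the same in every setting. Values that changed sign were near 0. With 1 library left out, Rpia in TGH against NTG ranged from -0.208 to 0.0201 and in TG against NTG from -0.0189 to 0.0984 (-0.0078 without TGL 1), Pgls in TGH against TGL from -0.0092 to 0.0947, and Me1 in TG against NTG from -0.0399 to 0.0198 (0.0144 without NTG 1). Without NTG 2 and TGL 2 together, Rpia in TG against NTG was -0.0319 and Me1 in TGL against NTG -0.0030. The causes were not tested. Correlations of deviations between libraries of the same replicate number were -0.05 to 0.01 for pairs with NTG. Between TGH and TGL they were 0.15, 0.06 and 0.33 for replicates 0, 1 and 2, and TGH 1 with TGL 0, of unlike number, had 0.15. Whether the numbers pair TGH with TGL libraries is not settled by these values. The block changed no call between the 3 groups. G6pdx, with 60 to 97 counts per library, and Rpia limit the size of change that could be seen.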
